A study of Rattus norvegicus with 9 samples.

Results

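Frizzled receptors and secreted Wnt antagonists were followed in RNA from the tibia of male Sprague Dawley rats, over 9 libraries. The members were fixed by gene symbol, and all 10 were found among the 23768 genes of the deposited count table. They are the receptors Fzd1, Fzd2, Fzd4, Fzd7 and Fzd8 and the antagonists Sfrp1, Sfrp2, Sfrp4, Frzb and Wif1. The study is titled as one of a peptide that imitates lysyl oxidase, used for bone healing in diabetes. It has 3 groups of 3 libraries. Model holds the replicates numbered 1, 2 and 5, while the numbers in GelMA, and again in PMLGH, are 2, 3 and 4. GelMA usually stands for gelatin methacryloyl, from which hydrogels are made. The sources used here do not give the meaning of PMLGH, what the Model animals received, or the genotype, age and time of sampling of any group. The labels do not say that each library is a separate animal, so p-values measure the spread between these libraries, which may be technical. They name no batch either, so a batch that follows the groups and the treatment cannot be told apart.

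Wnt proteins are secreted signals that bind Frizzled receptors, which span the membrane several times and catch the Wnt with an outer cysteine-rich domain. With the co-receptors Lrp5 or Lrp6 they stabilise beta-catenin inside the cell, and with Ror2 or Ryk they act without it. Secreted Frizzled-related proteins carry a copy of the cysteine-rich domain without the membrane part and can bind Wnts outside the cell. Wif1 binds Wnts through a domain of another kind. In bone, Wnt signalling through beta-catenin favours the formation of osteoblasts, and several secreted antagonists restrain it.

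Library totals ran from 34571478 to 37166383 counts. Model 2 stood apart within its group: per gene, the chi-square of its counts averaged 33.0 with Model 1 and 27.7 with Model 5, where Model 1 with Model 5 gave 15.7. The tissue label was checked against 10 osteoblast and bone matrix markers, none of which was at 0 in any library. Their summed level was 15935 to 20242 CPM in Model, 32594 to 36145 in GelMA and 34514 to 39955 in PMLGH. CPM are counts scaled to a common library size, adjusted here with the trimmed mean of M-values (TMM). A level with ± is a group's mean and SD, n = 3.

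The members were compared between groups with edgeR's quasi-likelihood test, fitted to all 16816 genes that passed a filter on low counts. All 10 members passed that filter. An adjusted p under 0.05 counted as passing, with Benjamini-Hochberg adjustment over all genes tested, and the ± after a log2 fold change is its SE. In PMLGH against Model, 6 of 10 members rose, none fell and 4 did not pass. Of all tested genes 27.5% passed there, with 15.7% higher and 11.9% lower. The median log2 fold change was 0.64 over the members and 0.02 over all tested genes. In GelMA against Model, 6 of 10 rose, none fell and 4 did not pass. Of all tested genes 22.6% passed there, with 12.7% higher and 9.88% lower, and the medians were 0.39 and 0.03. Between PMLGH and GelMA, 3 of 10 members were higher in PMLGH, none was lower and 7 did not pass. Of all tested genes 3.44% passed there, with 1.8% higher and 1.64% lower, and the medians were 0.11 and 0.0028. All 3 comparisons share libraries, so they are not independent of each other. In bulk RNA, fewer cells of a type and less RNA per cell cannot be told apart.

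**Figure D1:**
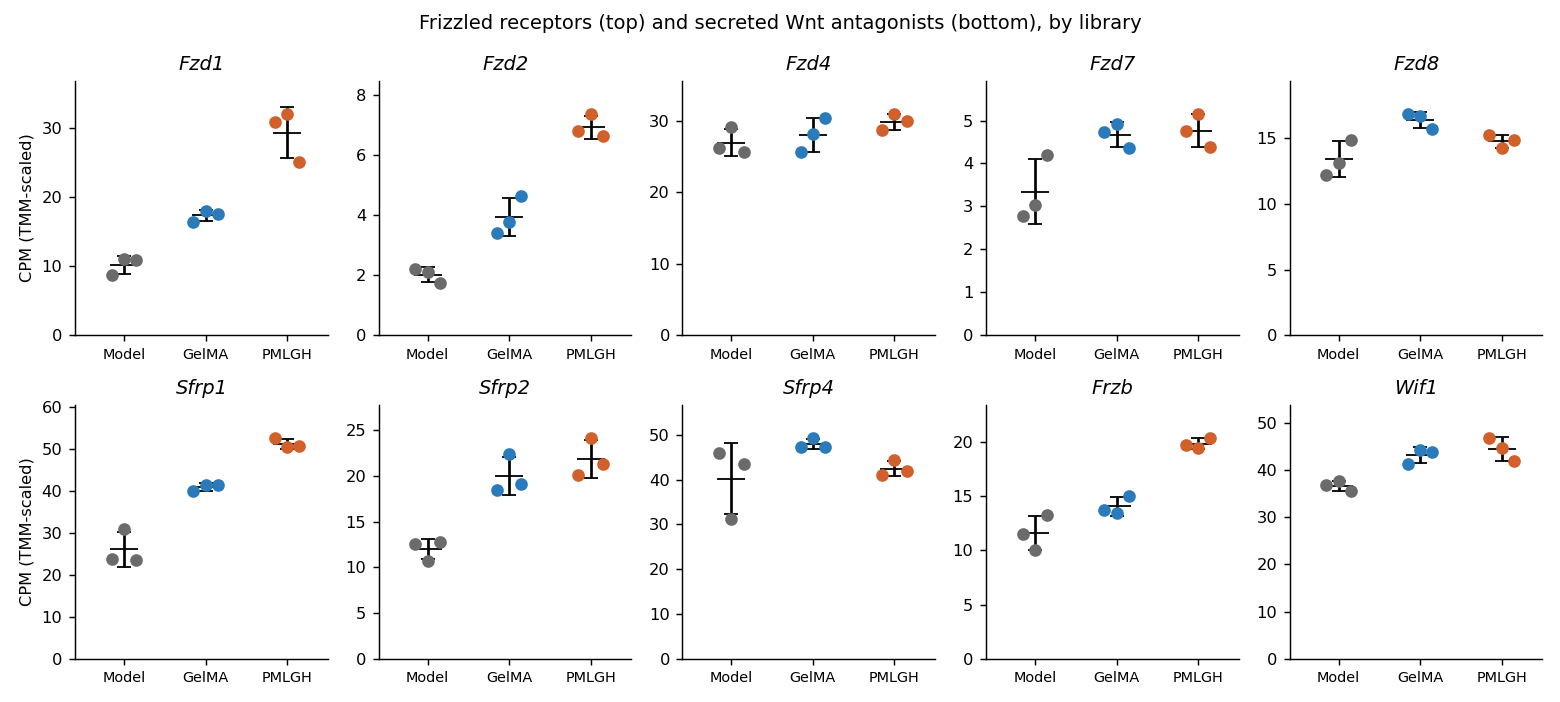
Level of each member in CPM (vertical axis, linear, from 0) in the 9 libraries. Points are libraries, and bars are the mean and SD of n = 3 per group. Fzd1, Fzd2, Sfrp1 and Frzb lie in steps without overlap from Model over GelMA to PMLGH, whereas the libraries of Fzd4 overlap in all 3 groups.

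Fzd1 and Fzd2 had the largest changes among the members, and both rose in all 3 comparisons. Fzd1 is a Frizzled receptor found in cells of the osteoblast lineage. Its level was 8.70, 11.0 and 10.9 CPM in Model 1, Model 2 and Model 5, then 16.4, 18.0 and 17.6 CPM in GelMA 2, 3 and 4, and 31.0, 32.0 and 25.1 CPM in PMLGH 2, 3 and 4. Every GelMA library lay above every Model library and below every PMLGH library. The mean rose from 10.2 ± 1.3 CPM in Model to 17.4 ± 0.84 in GelMA and 29.4 ± 3.7 in PMLGH. Against Model, the log2 fold change was 0.76 ± 0.12 in GelMA (edgeR adjusted p = 0.00028) and 1.52 ± 0.12 in PMLGH (adjusted p = 2.2e-07). Between PMLGH and GelMA it was 0.76 ± 0.11 (adjusted p = 0.00093). The Fzd1 calls held in all 19 alternatives of each comparison.

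Fzd2, a receptor best known as a partner of Wnt5a, was the less abundant of this pair. It had 2.21, 2.11 and 1.73 CPM in the Model libraries, 3.40, 3.77 and 4.65 CPM in GelMA and 6.80, 7.36 and 6.62 CPM in PMLGH. Again no library of a group overlapped with those of another. Its log2 fold change was 0.96 ± 0.19 in GelMA against Model (edgeR adjusted p = 0.0018), 1.78 ± 0.18 in PMLGH against Model (adjusted p = 5.7e-06) and 0.81 ± 0.17 in PMLGH against GelMA (adjusted p = 0.015). The last call was lost when 1 library was left out, with adjusted p = 0.070 without GelMA 2, 0.070 without GelMA 3, 0.055 without PMLGH 2 and 0.086 without PMLGH 3. Over its 19 alternatives the adjusted p ran from 0.00074 to 0.086, and the log2 fold change from 0.58 to 0.95. The GelMA against Model call of Fzd2 held in 18 of 19 alternatives, with log2 fold changes from 0.59 to 1.06. Its PMLGH against Model call held in all 19.

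To show the start regions of members that rose and of members that did not pass, upstream sequence was read from a RefSeq table of promoters (build GRCr8), which held 7 of the 10 members. For 4 of them the first base of the gene record came directly after the first 250 bases of the window. These 250 bases are shown, 5′ to 3′ on the strand of the gene. Capitals mark matches on either strand to any of 4 motifs, which were chosen after the sequences had been seen. For TCF/LEF, the factors through which beta-catenin acts, the letters searched were CTTTGA. For AP-1, a factor that answers to growth and stress signals, they were TGANTCA. For the TATA box, where transcription complexes settle on some promoters, they were TATAAA. For the GC box, which is bound by factors of the Sp family, they were GGGCGG. Fzd1 (chr4:30264824-30265073, plus strand) and Sfrp2 (chr2:171387286-171387535, plus strand) belong to genes that rose. Fzd4 (chr1:152692257-152692506, plus strand) and Fzd7 (chr9:68425288-68425537, plus strand) belong to genes that did not pass.
Fzd1: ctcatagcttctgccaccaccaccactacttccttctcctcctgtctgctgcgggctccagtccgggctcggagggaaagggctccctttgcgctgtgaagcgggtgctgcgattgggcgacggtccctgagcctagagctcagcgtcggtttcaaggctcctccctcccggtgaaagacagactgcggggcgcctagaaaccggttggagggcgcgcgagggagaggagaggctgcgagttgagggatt
Sfrp2: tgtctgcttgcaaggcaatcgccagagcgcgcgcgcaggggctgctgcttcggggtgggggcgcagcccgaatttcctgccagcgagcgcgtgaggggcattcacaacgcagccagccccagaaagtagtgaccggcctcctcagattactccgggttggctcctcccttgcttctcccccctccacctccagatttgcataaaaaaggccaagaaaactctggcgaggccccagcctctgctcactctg
Fzd4: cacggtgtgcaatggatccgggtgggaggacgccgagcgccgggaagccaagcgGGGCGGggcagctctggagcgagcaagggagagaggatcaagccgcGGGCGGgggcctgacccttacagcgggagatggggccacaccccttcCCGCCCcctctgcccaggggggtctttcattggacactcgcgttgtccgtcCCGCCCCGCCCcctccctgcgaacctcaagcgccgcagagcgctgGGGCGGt
Fzd7: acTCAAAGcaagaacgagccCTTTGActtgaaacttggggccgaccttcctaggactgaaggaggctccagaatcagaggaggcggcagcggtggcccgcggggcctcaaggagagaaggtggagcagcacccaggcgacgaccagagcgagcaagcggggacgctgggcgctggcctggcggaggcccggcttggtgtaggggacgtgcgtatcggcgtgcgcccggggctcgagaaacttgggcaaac
The Fzd1 and Sfrp2 windows held no match to any of the 4 motifs. The Fzd7 window held 2 TCF/LEF matches, at -248 to -243 on the opposite strand and at -230 to -225 on the same strand, counted from the first base of the gene with -1 just before it. The Fzd4 window held 6 GC box matches, 2 of which overlap by 1 base. Among 33469 promoters of the same length, 13.9% held the TCF/LEF motif, 6.34% the AP-1 motif, 12.9% the TATA box and 30.5% the GC box. The share of G and C was 63.6% for Fzd1, 62.4% for Sfrp2, 71.6% for Fzd4 and 65.6% for Fzd7, against a median of 51.2% over all promoters. A match describes these letters only.

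Fzd4, Fzd7 and Fzd8 changed less. Fzd4 is a receptor for Wnts and for the unrelated ligand Norrin, and is known from the growth of retinal vessels. Its level was 26.2, 29.1 and 25.6 CPM in Model, 25.6, 28.1 and 30.3 CPM in GelMA and 28.8, 30.9 and 29.9 CPM in PMLGH. The groups overlapped, and no comparison passed. The log2 fold change in PMLGH against Model was 0.15 ± 0.08 (edgeR adjusted p = 0.20) with a 95% interval of -0.03 to 0.32. In GelMA against Model it was 0.06 ± 0.08 (adjusted p = 0.69), and without GelMA 4 it was -0.02.

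Fzd7, a receptor studied in stem cells of gut and muscle, had 2.77, 3.04 and 4.20 CPM in Model, 4.73, 4.92 and 4.35 CPM in GelMA and 4.75, 5.15 and 4.39 CPM in PMLGH. Model 5 lay close to the other groups, and Model 1 and Model 2 lay lower. The log2 fold changes against Model were 0.48 ± 0.19 in GelMA (edgeR adjusted p = 0.076) and 0.51 ± 0.19 in PMLGH (adjusted p = 0.053), and neither passed. Without Model 5 both passed, at 0.67 (adjusted p = 0.028) and 0.70 (adjusted p = 0.019). Over the alternatives the adjusted p ran from 0.028 to 0.27 in GelMA and from 0.019 to 0.20 in PMLGH.

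Fzd8 was highest in GelMA. It had 12.2, 13.1 and 14.9 CPM in Model, 16.9, 16.7 and 15.8 CPM in GelMA and 15.2, 14.3 and 14.9 CPM in PMLGH. GelMA did not overlap with either other group, and Model and PMLGH overlapped. In GelMA against Model the log2 fold change was 0.29 ± 0.10 (edgeR adjusted p = 0.045), a call that held in 2 of 19 alternatives, with adjusted p from 0.029 to 0.24. Leaving out any of 8 libraries ended it, with adjusted p of 0.18 and 0.11 without Model 1 and Model 2, 0.11, 0.15 and 0.085 without GelMA 2, 3 and 4, and 0.060, 0.056 and 0.058 without PMLGH 2, 3 and 4. The differences in PMLGH against Model (0.14 ± 0.10, adjusted p = 0.32) and in PMLGH against GelMA (-0.15 ± 0.10, adjusted p = 0.50) did not pass.

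Among the antagonists, Sfrp1, Sfrp2 and Frzb had the larger rises. Sfrp1 is a secreted Frizzled-related protein whose loss in mice increases trabecular bone. Its level was 23.7, 31.0 and 23.6 CPM in Model, 40.0, 41.6 and 41.5 CPM in GelMA and 52.7, 50.6 and 50.7 CPM in PMLGH. The 3 groups did not overlap, and Model 2 was the highest Model library. Sfrp1 rose by 0.65 ± 0.09 on the log2 scale in GelMA against Model (edgeR adjusted p = 0.00014) and by 0.97 ± 0.09 in PMLGH against Model (adjusted p = 2.0e-06). The log2 fold change between PMLGH and GelMA was 0.32 ± 0.09 and did not pass (adjusted p = 0.064). It passed without Model 1, Model 2 or Model 5 (adjusted p = 0.046, 0.0022 and 0.047), and over the alternatives the adjusted p ran from 0.0022 to 0.20.

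Sfrp2, a close relative of Sfrp1 made by many fibroblasts, had 12.6, 10.7 and 12.8 CPM in Model, 18.5, 22.4 and 19.1 CPM in GelMA and 20.1, 24.2 and 21.3 CPM in PMLGH. GelMA and PMLGH both lay above Model, and they overlapped with each other. Sfrp2 rose by 0.73 ± 0.11 in GelMA against Model (edgeR adjusted p = 0.00025) and by 0.86 ± 0.11 in PMLGH against Model (adjusted p = 4.1e-05). Its log2 fold change in PMLGH against GelMA was 0.13 ± 0.11 (adjusted p = 0.62), with a 95% interval of -0.10 to 0.36.

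Frzb, an antagonist of the same family first known from cartilage, was higher in PMLGH than in both other groups. It had 11.5, 10.1 and 13.3 CPM in Model, 13.7, 13.4 and 15.0 CPM in GelMA and 19.7, 19.4 and 20.4 CPM in PMLGH. The lowest GelMA library lay just above the highest Model library, and PMLGH lay apart. Frzb rose by 0.77 ± 0.11 in PMLGH against Model (edgeR adjusted p = 9.5e-05) and by 0.50 ± 0.11 in PMLGH against GelMA (adjusted p = 0.015). Its log2 fold change of 0.28 ± 0.11 in GelMA against Model did not pass (adjusted p = 0.081), but did without Model 5 (0.37, adjusted p = 0.037). Over the alternatives of that comparison the value ran from 0.15 to 0.46 and the adjusted p from 0.037 to 0.32. The PMLGH against GelMA call was lost without GelMA 2, GelMA 3, PMLGH 2, PMLGH 3 or PMLGH 4 (adjusted p = 0.060, 0.085, 0.058, 0.054 and 0.067). Over all its alternatives the log2 fold change stayed between 0.41 and 0.54 and the adjusted p between 0.0012 and 0.085. Cartilage markers are given beside it, since Frzb is a gene of cartilage: 1 of 10 rose and 2 fell in PMLGH against Model, none rose and 2 fell in PMLGH against GelMA, and their summed level was 2239 to 2665 CPM in Model, 2757 to 3036 in GelMA and 2026 to 2640 in PMLGH. None was at 0 in any library, and their part in the Frzb result was not tested.

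Wif1, a Wnt-binding protein of the osteoblast lineage, rose little. It had 36.8, 37.6 and 35.5 CPM in Model, 41.3, 44.3 and 43.8 CPM in GelMA and 46.8, 44.6 and 41.9 CPM in PMLGH. Model lay below both other groups, which overlapped. The log2 fold change was 0.24 ± 0.07 in GelMA against Model (edgeR adjusted p = 0.019) and 0.28 ± 0.07 in PMLGH against Model (adjusted p = 0.0057). The first call was lost without Model 5, GelMA 3 or GelMA 4 (adjusted p = 0.087, 0.10 and 0.085), and its adjusted p lay between 0.014 and 0.36 in the alternatives. The PMLGH against Model call of Wif1 held in 18 of 19 alternatives. The exception was the replicate block, in which Model 2 alone stands for Model. For PMLGH against GelMA the log2 fold change was 0.04 ± 0.07 (adjusted p = 0.82).

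Sfrp4, whose loss in people causes a skeletal disease with thin cortical bone, did not pass in any comparison. It had 46.0, 31.2 and 43.5 CPM in Model, 47.3, 49.3 and 47.4 CPM in GelMA and 41.1, 44.4 and 41.8 CPM in PMLGH. Model 2 lay below all other libraries. The log2 fold change was 0.26 ± 0.11 in GelMA against Model (edgeR adjusted p = 0.10), 0.08 ± 0.11 in PMLGH against Model (adjusted p = 0.64) and -0.18 ± 0.11 in PMLGH against GelMA (adjusted p = 0.46). Without Model 2 the first value was 0.07 and the second turned to -0.11 (adjusted p = 0.26), while without Model 1 the first passed at 0.36 (adjusted p = 0.035). Over the alternatives the log2 fold change ran from 0.07 to 0.59 for the first and from -0.11 to 0.41 for the second. The 0.41 came from the replicate block, in which Model 2 alone stands for Model. The adjusted p reached 0.48 for the first and 0.85 for the second.

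**Figure D2:**
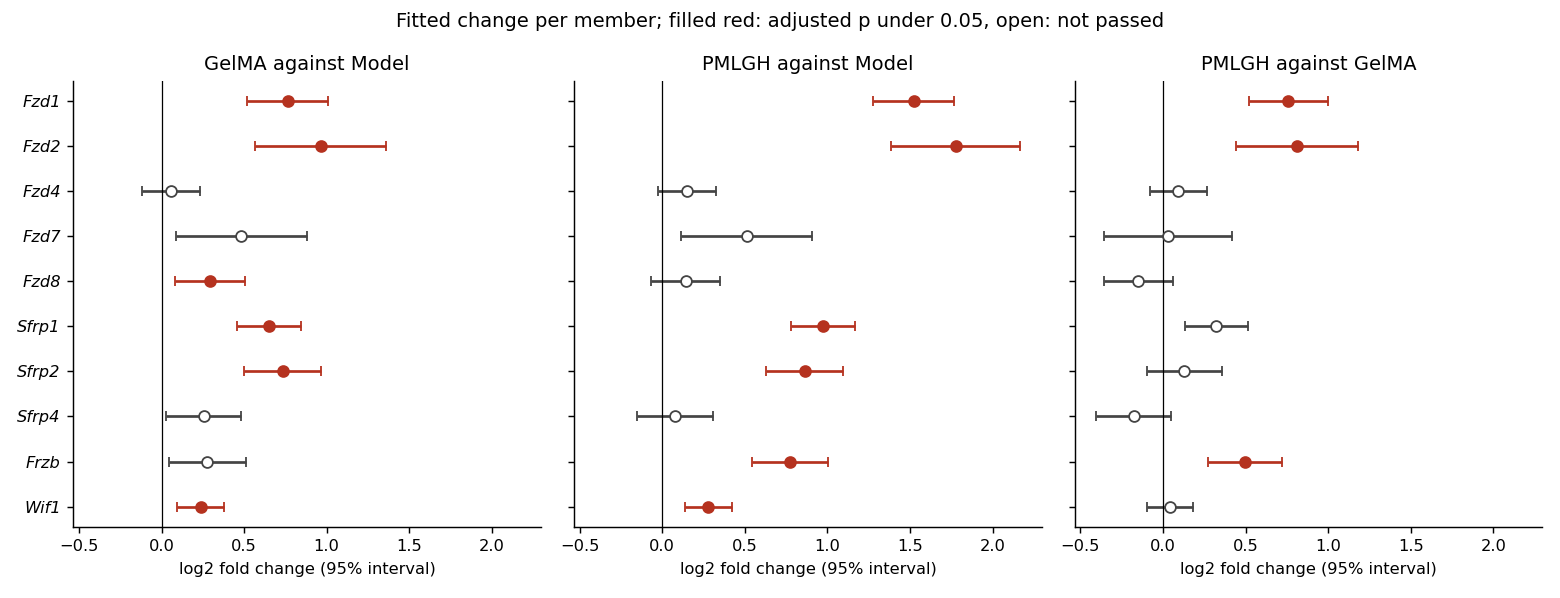
Fitted log2 fold change of each member (horizontal axis) with its 95% interval, in the 3 comparisons. Filled red points passed at an adjusted p under 0.05 and open points did not, and in PMLGH against GelMA only Fzd1, Fzd2 and Frzb are filled, at 0.76, 0.81 and 0.50.

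Non-overlap of the libraries gave a like picture. In PMLGH against Model, 7 of 10 members had every PMLGH library above every Model library and none the reverse. Of all tested genes 39.4% did not overlap there, with 21.1% higher and 18.4% lower. In GelMA against Model this was so for 9 of 10 members, all but Fzd4. Of all tested genes 36.6% did not overlap there, with 19.8% higher and 16.8% lower. Between PMLGH and GelMA, 4 members were higher without overlap (Fzd1, Fzd2, Sfrp1 and Frzb) and 2 were lower (Fzd8 and Sfrp4), of which Sfrp1, Fzd8 and Sfrp4 did not pass the test. Of all tested genes 23.7% did not overlap there, with 12.3% higher and 11.4% lower.

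Levels of different genes were set side by side in FPKM, which divides by gene length. Wif1 had the highest level of the members in each group, at 16.1 ± 0.56 FPKM in Model, 19.5 ± 0.98 in GelMA and 19.7 ± 1.3 in PMLGH. In Model it was followed by Sfrp4 (11.8 ± 2.2 FPKM), Sfrp1 (6.63 ± 1.1), Sfrp2 (6.01 ± 0.52), Frzb (4.18 ± 0.56), Fzd4 (4.01 ± 0.31), Fzd1 (2.30 ± 0.31), Fzd8 (1.94 ± 0.20), Fzd7 (1.17 ± 0.26) and Fzd2 (1.04 ± 0.13). The neighbours Sfrp1 and Sfrp2, Frzb and Fzd4, Fzd1 and Fzd8, and Fzd7 and Fzd2 overlapped in their libraries there, and the other neighbours did not. In each of the groups every antagonist had a higher mean level than every Frizzled member. In PMLGH the order was Wif1, Sfrp1 (13.2 ± 0.41 FPKM), Sfrp4 (12.6 ± 0.52), Sfrp2 (11.0 ± 1.1), Frzb (7.22 ± 0.13), Fzd1 (6.67 ± 0.89), Fzd4 (4.49 ± 0.15), Fzd2 (3.62 ± 0.22), Fzd8 (2.16 ± 0.078) and Fzd7 (1.69 ± 0.14). There the pairs Sfrp1 and Sfrp4, and Frzb and Fzd1, overlapped. Fzd1 thus moved above Fzd4, with which it overlapped in GelMA (4.00 ± 0.24 and 4.28 ± 0.41 FPKM).

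The make-up of the receptor sum shifted with the groups. The 5 Frizzled members summed to 10.5 ± 0.70 FPKM in Model, 14.5 ± 0.88 in GelMA and 18.6 ± 1.3 in PMLGH. Of that sum, Fzd1 held 21.9% ± 1.6 in Model, 27.6% ± 0.65 in GelMA and 35.7% ± 2.5 in PMLGH. Fzd2 held 10.0% ± 1.7, 14.4% ± 1.7 and 19.4% ± 0.51. Fzd4 made up the largest share in Model and GelMA, at 38.4% ± 2.7 and 29.5% ± 1.1, and 24.2% ± 1.5 in PMLGH, where Fzd1 held more. The 5 antagonists summed to 44.7 ± 1.6 FPKM in Model, 60.1 ± 2.8 in GelMA and 63.7 ± 1.9 in PMLGH. Within that sum Wif1 held 36.0% ± 2.4, 32.4% ± 0.40 and 30.9% ± 1.4, and Sfrp1 held 14.9% ± 3.1, 17.8% ± 0.32 and 20.7% ± 0.68. The ratio of the antagonist sum to the Frizzled sum was 4.29 ± 0.41 in Model, 4.15 ± 0.13 in GelMA and 3.43 ± 0.14 in PMLGH, and the PMLGH libraries lay below all others. The Frizzled sum leaves out Fzd5 and other Frizzled genes, and the antagonist sum leaves out Sost and others. Sost alone had 57.7 to 61.4 FPKM in Model, 87 to 103.7 in GelMA and 63.4 to 73.9 in PMLGH. The members held a smaller part of all Frizzled FPKM in Model than in PMLGH, as given below. The lower ratio in PMLGH therefore depends on which Frizzled genes are counted. With the same antagonist sum set over all Frizzled genes of the table, the PMLGH and Model libraries would overlap. These sums, shares and ratios are descriptions over chosen members and were not tested.

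**Figure D3:**
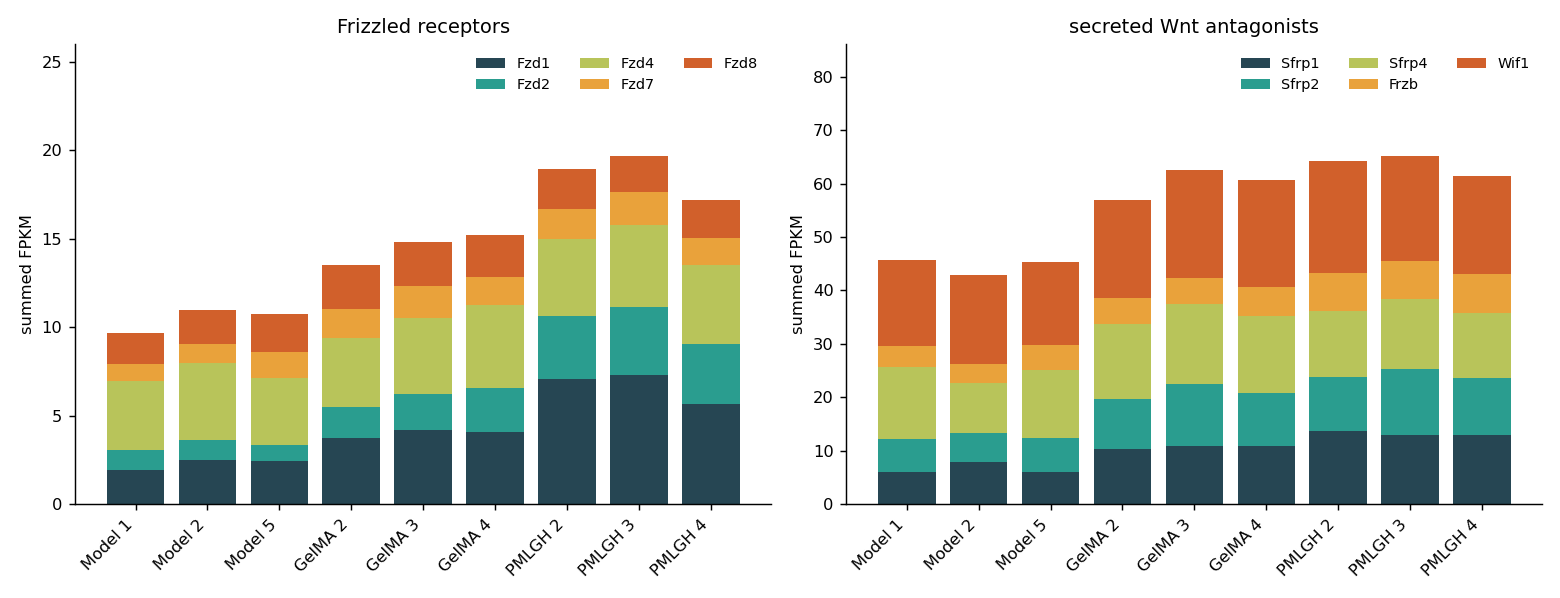
FPKM of the members in each library, stacked (vertical axes, linear, from 0), with the Frizzled receptors on the left and the antagonists on the right. The Frizzled bars grow from 10.5 FPKM on average in Model to 18.6 in PMLGH, and most of the added height belongs to Fzd1 and Fzd2.

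Of all 10 rat Frizzled genes in the table, the 5 members held 49.9% to 53.3% of the summed FPKM in Model, 60.6% to 62.4% in GelMA and 64.9% to 68.5% in PMLGH. The most abundant Frizzled outside the members was Fzd5, with 7.33 ± 1.0 FPKM in Model, 5.48 ± 0.72 in GelMA and 6.37 ± 0.93 in PMLGH. Fzd5 fell by 0.46 ± 0.14 on the log2 scale in GelMA against Model (edgeR adjusted p = 0.028), a call lost without Model 5 or GelMA 2 (adjusted p = 0.13 and 0.11, range 0.0082 to 0.13). Fzd6 rose by 0.61 ± 0.15 in the same comparison (adjusted p = 0.0089), a call lost without GelMA 4 (adjusted p = 0.060, range 0.0031 to 0.24). Fzd10 had at most 13 counts in a library and was not tested.

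Markers of the cells that could carry these genes moved with the groups, and are given as measured. Of 10 fibroblast and periosteum markers, 10 rose in PMLGH against Model (median log2 fold change 0.92), 10 rose in GelMA against Model (0.74), and 3 rose in PMLGH against GelMA (0.19). Their summed level was 888 to 1003 CPM in Model, 1800.3 to 1949 in GelMA and 2539 to 2832 in PMLGH. Of 10 osteoblast and bone matrix markers, 8 rose in PMLGH against Model (median 0.79), 10 rose in GelMA against Model (0.73), and none rose and 1 fell in PMLGH against GelMA (0.07). All 8 smooth muscle and pericyte markers rose in both comparisons with Model (medians 0.85 and 0.77), at 265 to 270.5 CPM in Model, 487 to 537 in GelMA and 538 to 551 in PMLGH. Skeletal muscle markers, of another tissue, were highest in GelMA, with 547 to 768 CPM in Model, 2582 to 3159 in GelMA and 864 to 1210 in PMLGH. Of these 10, 10 rose in GelMA against Model and 10 fell in PMLGH against GelMA. Macrophage markers rose in 5 of 6 cases in PMLGH against Model, in 3 of 6 in GelMA against Model and in 4 of 6 in PMLGH against GelMA, at 697 to 811 CPM in Model, 794 to 853 in GelMA and 990.6 to 1039.5 in PMLGH. Of 8 endothelial markers, 4 rose in each comparison with Model and 1 in PMLGH against GelMA, at 484 to 518 CPM in Model, 532 to 579.8 in GelMA and 602 to 635 in PMLGH. All 6 erythroid markers fell in both comparisons with Model (medians -0.47 and -0.47), at 8118 to 10034 CPM in Model, 6710.4 to 7279 in GelMA and 6489.9 to 7172 in PMLGH. Of 6 adipocyte markers, 3 fell in each comparison with Model and 1 rose in PMLGH against GelMA, at 747 to 1013 CPM in Model, 543 to 625 in GelMA and 663 to 741 in PMLGH. None of these markers was at 0 in any library, and their part in the members' results was not tested.

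Set against the mean log2 CPM of the fibroblast and periosteum markers in the same library, the members separated. The difference for Fzd2 was -4.92 to -4.43 log2 units in Model, -4.77 to -4.45 in GelMA and -4.12 to -4.08 in PMLGH, so PMLGH was higher than both other groups without overlap. For Fzd1 it was -2.60 to -2.07 in Model, -2.54 to -2.48 in GelMA and -2.21 to -1.90 in PMLGH, and its Model and PMLGH libraries overlapped. Sfrp1 differed by -0.24 between the means of PMLGH and Model on this relative scale, Sfrp2 by -0.37 and Frzb by -0.45. The differences were -1.08 for Fzd4, -0.70 for Fzd7, -1.08 for Fzd8, -1.13 for Sfrp4 and -0.95 for Wif1. Between GelMA and Model the difference was negative for every member, from -0.90 for Fzd4 to -0.015 for Fzd2. No member thus rose more than the mean of these markers in GelMA against Model. Between PMLGH and GelMA the differences were 0.48 for Fzd1, 0.55 for Fzd2, 0.23 for Frzb and 0.05 for Sfrp1. They were negative for the other 6 members, from -0.45 for Sfrp4 to -0.14 for Sfrp2. Against the osteoblast and bone matrix markers, Fzd1 differed by 0.86 and Fzd2 by 1.10 between PMLGH and Model, and in neither case did these groups overlap. On that scale Sfrp1 differed by 0.32, Sfrp2 by 0.20 and Frzb by 0.12, and the differences were -0.51 for Fzd4, -0.14 for Fzd7, -0.52 for Fzd8, -0.57 for Sfrp4 and -0.38 for Wif1. Against the smooth muscle and pericyte markers they were 0.40 for Fzd1 and 0.64 for Fzd2, and -1.02 to -0.13 for the other 8 members. Against the skeletal muscle markers they were 0.68 for Fzd1, 0.92 for Fzd2, 0.15 for Sfrp1 and 0.02 for Sfrp2, and -0.74 to -0.06 for the other 6 members. On both of these muscle scales the Model and PMLGH libraries of Fzd1 overlapped, and those of Fzd2 did not.

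The rest of the Wnt pathway was followed with 77 other genes in 8 lists, of which 65 were tested. In PMLGH against Model 21 rose, 2 fell and 42 did not pass, with a median log2 fold change of 0.31. In GelMA against Model 18 rose, 4 fell and 43 did not pass, with a median of 0.41. Between PMLGH and GelMA 1 was higher, 1 was lower and 63 did not pass, with a median of 0.04. Of all tested genes, 15.7% were higher and 11.9% lower in PMLGH against Model, and 12.7% and 9.88% in GelMA against Model. For PMLGH against GelMA these shares were 1.8% and 1.64%. The counts per list below stand beside the same shares.

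Of 7 co-receptors and alternative receptors, 4 rose in PMLGH against Model. Ptk7, a receptor-like protein of planar cell polarity, rose from 22.4 ± 1.7 CPM in Model to 39.8 ± 3.1 in GelMA and 57.0 ± 0.71 in PMLGH. It was the sole pathway gene that rose in PMLGH against GelMA (0.52 ± 0.07, edgeR adjusted p = 0.00077). Ror2, a receptor of Wnt5a, rose by 0.70 ± 0.14 in PMLGH against Model (adjusted p = 0.0017), and Lrp6, a co-receptor of the beta-catenin branch, by 0.32 ± 0.07 (adjusted p = 0.0050). Ryk, another Wnt receptor, named here after its values were seen, had a log2 fold change of 0.04 ± 0.07 (adjusted p = 0.68). Of 13 tested Wnt ligands, 3 rose in PMLGH against Model and 3 in GelMA against Model. Wnt5a was at 7.39 ± 1.2 CPM in Model, 11.7 ± 0.68 in GelMA and 15.7 ± 2.4 in PMLGH (1.08 ± 0.14 in PMLGH against Model, adjusted p = 4.7e-05). Wls, which carries Wnts to the cell surface, rose by 0.61 ± 0.08 (adjusted p = 3.7e-05). The calls of Wnt5b, of Porcn, which attaches the lipid of Wnts, and of Wnt2 were less stable. Wnt5b passed in 13 of 19 alternatives in PMLGH against Model (0.47 ± 0.15, adjusted p = 0.029, range 0.021 to 0.11) and in 5 of 19 in GelMA against Model (0.44 ± 0.15, adjusted p = 0.044, range 0.028 to 0.29). The first of these calls was lost without Model 2, Model 5 or any PMLGH library (adjusted p = 0.11, 0.068, 0.061, 0.10 and 0.057), and the second without Model 2, Model 5, GelMA 2, GelMA 3 or any PMLGH library (adjusted p = 0.15, 0.092, 0.067, 0.29, 0.062, 0.057 and 0.059). Porcn passed in 7 of 19 in PMLGH against Model (0.51 ± 0.18, adjusted p = 0.046, range 0.0095 to 0.18), and leaving out any library but Model 1 ended the call, with adjusted p from 0.058 to 0.18. Wnt2 had 1.18, 3.83 and 1.23 CPM in Model, 4.56, 5.72 and 4.38 CPM in GelMA and 1.84, 2.02 and 2.15 CPM in PMLGH. Its rise in GelMA against Model (1.22 ± 0.35, adjusted p = 0.020) was lost without Model 1, Model 5 or GelMA 3 (adjusted p = 0.083, 0.084 and 0.081), and its range was 1.6e-05 to 0.79.

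Other antagonists and the R-spondin axis moved in part. Of 7 tested secreted or surface antagonists outside the members, 3 rose in PMLGH against Model and 4 in GelMA against Model. Dkk3, a divergent member of the Dickkopf family, rose by 0.60 ± 0.08 in GelMA (edgeR adjusted p = 6.5e-05) and 0.89 ± 0.08 in PMLGH (adjusted p = 8.9e-07), and Kremen1, a Dickkopf receptor, by 0.57 ± 0.10 and 0.73 ± 0.10. Notum, which removes the lipid of Wnts, passed in PMLGH against Model (1.13 ± 0.37, adjusted p = 0.034) and in 12 of 19 alternatives, with adjusted p from 0.012 to 0.31. It was lost without Model 1, Model 2, Model 5, PMLGH 2 or PMLGH 3 (adjusted p = 0.055, 0.064, 0.11, 0.13 and 0.13). Sost, the osteocyte gene of sclerostin, was highest in GelMA, at 40.2 ± 1.5 CPM in Model, 63.6 ± 4.9 in GelMA and 45.2 ± 3.5 in PMLGH. It was the sole pathway gene that fell in PMLGH against GelMA (-0.49 ± 0.07, adjusted p = 0.0012). Of 9 R-spondin axis genes, which raise or lower the amount of Frizzled at the cell surface, 2 rose in PMLGH against Model and 3 in GelMA against Model. Lgr4, a receptor of R-spondins, rose by 0.44 ± 0.10 in PMLGH against Model (adjusted p = 0.0046), and the ligand Rspo2 by 1.79 ± 0.38 (adjusted p = 0.0025). Rspo2 had few reads, at 0.59 ± 0.23 CPM in Model. Its call held in 18 of 19 alternatives, with log2 fold changes from 0.16 to 2.13.

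Of 14 relay genes inside the cell, 3 rose and 2 fell in PMLGH against Model. Ctnnb1, which encodes beta-catenin, rose by 0.41 ± 0.06 (edgeR adjusted p = 0.00013), Tcf7, a partner of beta-catenin that T cells also express, by 0.72 ± 0.12 (adjusted p = 0.00052), and Btrc, which marks beta-catenin for breakdown, fell by 0.29 ± 0.07 (adjusted p = 0.0054). Of 9 tested feedback and target genes, 4 rose in PMLGH against Model, among them Ccn4 (0.70 ± 0.08, adjusted p = 2.6e-05) Tnfrsf19 (1.12 ± 0.16, adjusted p = 0.00014) and Ccn5 (0.64 ± 0.11, adjusted p = 0.00067). Axin2, a widely used readout of beta-catenin signalling that was singled out after its values were seen, was at 7.56 ± 1.7 CPM in Model, 8.01 ± 0.97 in GelMA and 6.29 ± 1.1 in PMLGH. Its log2 fold change in PMLGH against Model was -0.26 ± 0.18 and did not pass (adjusted p = 0.30).

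**Figure D4:**
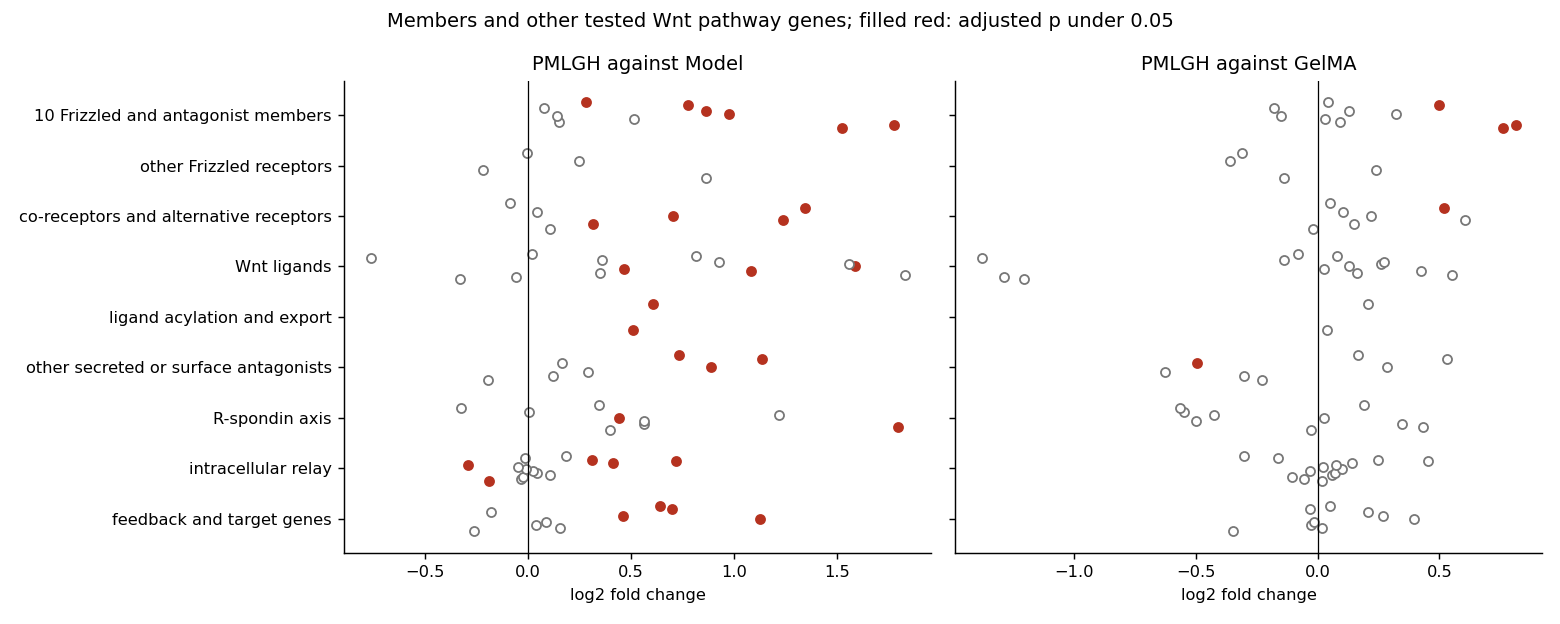
Log2 fold change (horizontal axis) of the members and of the other tested Wnt pathway genes, 1 point per gene, by list, for PMLGH against Model and PMLGH against GelMA. Filled red points passed at an adjusted p under 0.05, and in the right panel these are 3 members, Ptk7 and Sost.

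Genes most like a member in pattern were sought among 12860 named genes whose level averaged 1 CPM or more, by the root mean square difference of standardised log2 CPM over the 9 libraries. For Fzd1 the nearest were Nampt, an enzyme of NAD synthesis, and Gbp2, a GTPase induced by interferon, at 0.088 and 0.15 SD. For Fzd2 they were Fscn1, which bundles actin, and the syndecan Sdc1, at 0.12 and 0.14 SD. For Sfrp1 they were the chemokine Cxcl9 and Oaf, at 0.062 and 0.092 SD, and for Sfrp2 the VEGF receptor Flt1 and the GTPase Rhoj, at 0.12 and 0.14 SD. The nearest gene lay at 0.15 SD for Fzd7, 0.16 SD for Wif1, 0.22 SD for Frzb, 0.24 SD for Fzd4, 0.29 SD for Fzd8 and 0.37 SD for Sfrp4. Within the members, Fzd1 and Fzd2 were the most alike, at 0.27 SD, and Fzd4 and Sfrp4 the least, at 1.48 SD. These are descriptions over libraries that fall into 3 groups, which genes of many kinds share.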

How the data were processed

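Rat tibia RNA was sequenced in 9 libraries, and 2 tables of the whole series were used, both with 23768 genes. The first holds raw counts per gene symbol, deposited by the authors without scaling. The second holds FPKM, which the authors deposited scaled to gene length and library total. The submitters' processing notes name DESeq2 and R 3.2.0, with no role. Which aligner, counter, build and annotation were used, and whether strand was counted, is not given in the sources used here. Reads of a gene and of its antisense partner therefore cannot be told apart. All 9 columns matched 1 label each, and 970 genes had 0 counts throughout.

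Counts were tested with edgeR 4.0.16 in R 4.3.3 (filterByExpr, TMM, quasi-likelihood F test, 1 mean per group over all 9 libraries, 6 residual degrees of freedom, two-sided). The script was tested on simulated data. The common biological coefficient of variation was 10.1%. Log2 CPM used a prior count of 2. FPKM were used to compare genes. The alternatives used RLE or upper-quartile scaling, 2 other filters, DESeq2 1.42.0, a robust spread, the compared groups alone, a replicate block, limma 3.58.1 with trend on log2(FPKM + 0.1) and log2(FPKM + 1), and each library left out. Precision from counting was lowest for Fzd2 and Fzd7, the members with the fewest reads.

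The members, lists and tests were chosen with earlier results of these data known. All members are named, and other pathway genes could be named by smallest p among those that passed, at most 3 per list and comparison with a mean of at least 1 CPM. Axin2, Ryk and Fzd10 fall outside this rule. For likeness, the 2 nearest genes per member were found, and some of them are given. Promoter windows that lie inside a gene record (3 members) are not shown.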

Additional observations from a re-analysis of the deposited data

How the results depend on the processing

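The 10 members were recomputed under 19 alternatives per comparison. In PMLGH against Model the number of members that passed was 6 or 7 throughout, though not always of the same members, and in GelMA against Model it was 4 to 7. In PMLGH against GelMA it was 3 and ran from 1 to 4 when a library was left out, being 1 without GelMA 2, GelMA 3, PMLGH 2 or PMLGH 3, when Fzd1 alone passed. With the replicate block, where Model 2 alone stands for Model, Fzd4 changed sign (-0.052 in PMLGH against Model, -0.15 in GelMA against Model). Model 2 was the highest Model library for Fzd4, at 29.1 CPM. Of the values with no call, 4 changed sign with a library left out. These were Sfrp4 in PMLGH against Model (-0.11 to 0.18, lowest without Model 2), Fzd4 in GelMA against Model (-0.024 to 0.12, lowest without GelMA 4), and, in PMLGH against GelMA, Fzd7 (-0.030 to 0.085, below 0 without GelMA 4, at -0.022, or PMLGH 3) and Wif1 (-0.0018 to 0.083, lowest without PMLGH 2). The cause of these 4 changes was not tested.

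In PMLGH against Model 4631 genes passed, 3244 to 5668 with a library left out, and in GelMA against Model 3804 passed, 2601 to 5053 with a library left out. In PMLGH against GelMA 578 passed, against 909 with DESeq2, 1059 with the compared groups alone, 384 on log2(FPKM + 0.1) and 303 to 1050 with a library left out. Of the other pathway genes 2 passed there, against 5 without a filter or with DESeq2, 4 with a robust spread, 6 with the compared groups alone and 2 to 5 with a library left out. The antagonist to Frizzled ratio of the members ran from 4.07 to 4.48 in Model, 4.11 to 4.22 in GelMA and 3.35 to 3.49 in PMLGH with a library left out.

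GelMA and PMLGH share the replicate numbers 2, 3 and 4, and Model shares only 2. Deviations from the group means of same-numbered GelMA and PMLGH libraries correlated at 0.014, 0.027 and -0.008 over 16816 genes. PMLGH 2 and PMLGH 3 correlated best with the GelMA library of the same number, and PMLGH 4 correlated best with GelMA 2. As all these correlations were small, the numbers were not taken as pairs. With the replicate block, 1413 genes and 11 other pathway genes passed in PMLGH against Model, where Wif1 no longer passed (0.25, adjusted p = 0.21) and Sfrp4 did (0.41, adjusted p = 0.023). The same fit gave 960 and 7 for GelMA against Model, and 1009 and 5 for PMLGH against GelMA.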
